A study of Rattus norvegicus with 4 samples.

Results

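The messenger RNA (mRNA) of 10 axon injury and regeneration genes was measured in the lumbar dorsal root ganglia (DRG) of young Wistar rats given vehicle or cisplatin, a platinum-based chemotherapeutic that causes sensory neuropathy. The genes were taken by name from the deposited table, as the protein-coding rows for Atf3, Jun, Sox11, Gap43, Sprr1a, Ecel1, Stmn4, Klf6, Stat3 and Smad1; each name matched 1 row, giving 10 of 22293 protein-coding rows and of 33506 rows in all. Wild-type neonatal rats received cisplatin intraperitoneally at 0.3 mg/kg on postnatal days P14 and P16, and control rats received vehicle (PBS in the methods, saline in a figure legend). There were 2 libraries per group. Each library came from several lumbar DRGs pooled together, the sex behind each library is not stated, and the labels place the tissue 16 days after treatment whereas the methods place it at P23.

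DRG hold the cell bodies of sensory neurons, wrapped by satellite glia and mixed with Schwann cells, fibroblasts, vessels and macrophages. After a peripheral nerve is cut, stress signals carried back along the axon (the DLK and JNK kinase cascade, and gp130 cytokines acting through Stat3) switch on transcription factors such as Atf3, Jun and Sox11, and these are followed by growth-associated proteins such as Gap43 and Sprr1a. Atf3 in particular is widely used as a marker of injured sensory neurons. Several members, Jun and Stat3 among them, are also controlled by phosphorylation, which mRNA does not measure.

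Atf3 and Jun proteins belong to the bZIP class, and the deposited annotation gives both the same bZIP domain (Pfam PF00170). Such proteins bind DNA as pairs, at AP-1-like letters (TGANTCA) or at CRE-like letters (TGACNTCA or TGANGTCA). RefSeq promoters of the GRCr8 rat assembly, from 250 bases before to 50 after the start, were matched for 6 of the 10 genes (Sox11, Sprr1a, Ecel1, Klf6, Stat3 and Smad1); Atf3, Jun, Gap43 and Stmn4 had no entry. On either strand, AP-1-like letters were found in 1 of these 6 promoters and in 7.33% of all 33469, and CRE-like letters in 3 of 6 and in 10.2% of all. The 3 promoters with a match are shown, with the matches in capitals, because they carry the letters that members of the same group bind. Sprr1a (chr2:180752576-180752875, minus strand) held TGAGTCA starting 147 and 117 bases before the start and TGACATCA at 208, Klf6 (chr17:69458429-69458728, minus strand) held TGACATCA at 132, and Sox11 (chr6:49738745-49739044, minus strand) held TGATGTCA at 51.
Sprr1a: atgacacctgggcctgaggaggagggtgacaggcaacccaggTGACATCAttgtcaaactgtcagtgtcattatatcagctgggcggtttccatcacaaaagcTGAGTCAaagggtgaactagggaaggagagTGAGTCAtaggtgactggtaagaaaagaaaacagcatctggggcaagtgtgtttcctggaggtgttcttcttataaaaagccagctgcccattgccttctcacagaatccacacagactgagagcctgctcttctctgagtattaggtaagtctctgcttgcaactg
Klf6: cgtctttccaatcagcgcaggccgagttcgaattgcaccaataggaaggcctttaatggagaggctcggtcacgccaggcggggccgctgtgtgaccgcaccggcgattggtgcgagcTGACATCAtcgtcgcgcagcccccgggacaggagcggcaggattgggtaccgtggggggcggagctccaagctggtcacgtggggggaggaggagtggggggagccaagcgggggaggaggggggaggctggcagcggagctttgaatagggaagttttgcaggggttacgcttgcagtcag
Sox11: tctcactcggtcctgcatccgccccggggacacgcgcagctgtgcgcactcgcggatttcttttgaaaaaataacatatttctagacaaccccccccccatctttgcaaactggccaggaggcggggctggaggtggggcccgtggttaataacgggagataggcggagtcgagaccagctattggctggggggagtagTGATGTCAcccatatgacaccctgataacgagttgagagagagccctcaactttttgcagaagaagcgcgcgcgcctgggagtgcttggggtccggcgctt
A match describes these letters only and was not tied to any factor's binding in these samples. Of the 3 genes Sprr1a was near 0 and Sox11 low in all libraries, and Klf6 had the largest fitted difference of the members, which was not called.

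The authors deposited whole-number read counts per gene and FPKM values (a level scaled for gene length and sequencing depth). Total counts ranged from 21384801 to 25618417 per library, and 3 counts, used as a detection floor, corresponded to 0.118 to 0.152 CPM (counts brought to a common library size with TMM factors, the unit of all levels below unless FPKM is named); that floor covers counting error only. The DRG identity was checked against defining markers, and all 8 neuron markers, 6 Schwann cell markers and 4 satellite glia markers were present. Library composition differed within the groups. The summed Schwann cell markers were at 61461 and 156198 CPM in vehicle replicates 1 and 2 and at 48079 and 137032 CPM in cisplatin replicates 1 and 2, and the summed neuron markers at 17352, 13403, 22644 and 16033 CPM in the same order. Vehicle replicate 1 stood apart by its skeletal muscle markers (354 CPM against 12.9 to 42.7 in the other libraries) and its spinal cord glia markers (103 CPM against 19.6 to 35.1, with 56 counts of Olig2 against 0). Values without this library are given beside many of the results, but not beside all that it moves. The mitochondrially encoded share of the counts was 1.53% and 2.58% in vehicle and 5.46% and 4.78% in cisplatin, and its part in the results was not tested. The closest pair of libraries, vehicle replicate 2 and cisplatin replicate 2, still differed well beyond sampling noise (chi-square of 40.9 per degree of freedom).

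None of the genes was called changed by cisplatin. edgeR's quasi-likelihood test was fitted over the 14719 protein-coding genes that passed a filter on low counts, and a call needed both a fold change of at least 1.5 and a Benjamini-Hochberg adjusted p under 0.05. Of the 10 genes 9 passed the filter and 0 were called, against 0.00679% of all genes tested (a single gene). DESeq2 also called 0 of the members, against 0.649% of the genes to which it gave an adjusted p. At an unadjusted p under 0.05 with the same fold, 1 member was lower (Klf6) and 0 were higher, where 5.32% and 2.8% of all genes were lower and higher. The fitted log2 fold change (cisplatin over vehicle) was above 0 for 5 of 9 members (49.1% of all genes tested) and below 0 for 4, with a median of 0.01 against -0.01 over all genes tested. Atf3 and Stat3 fell on the other side of 0 with library size alone as the scale, and Atf3, Stmn4, Stat3 and Smad1 did so when the libraries were scaled to neuron markers, where the median of all genes was -0.30. With 2 libraries against 2 an exact permutation test of a single gene cannot give a two-sided p below 0.333, so the model's p rests on a spread estimated across genes. In bulk tissue fewer cells of a type and less RNA per cell cannot be told apart.

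**Figure D1:**
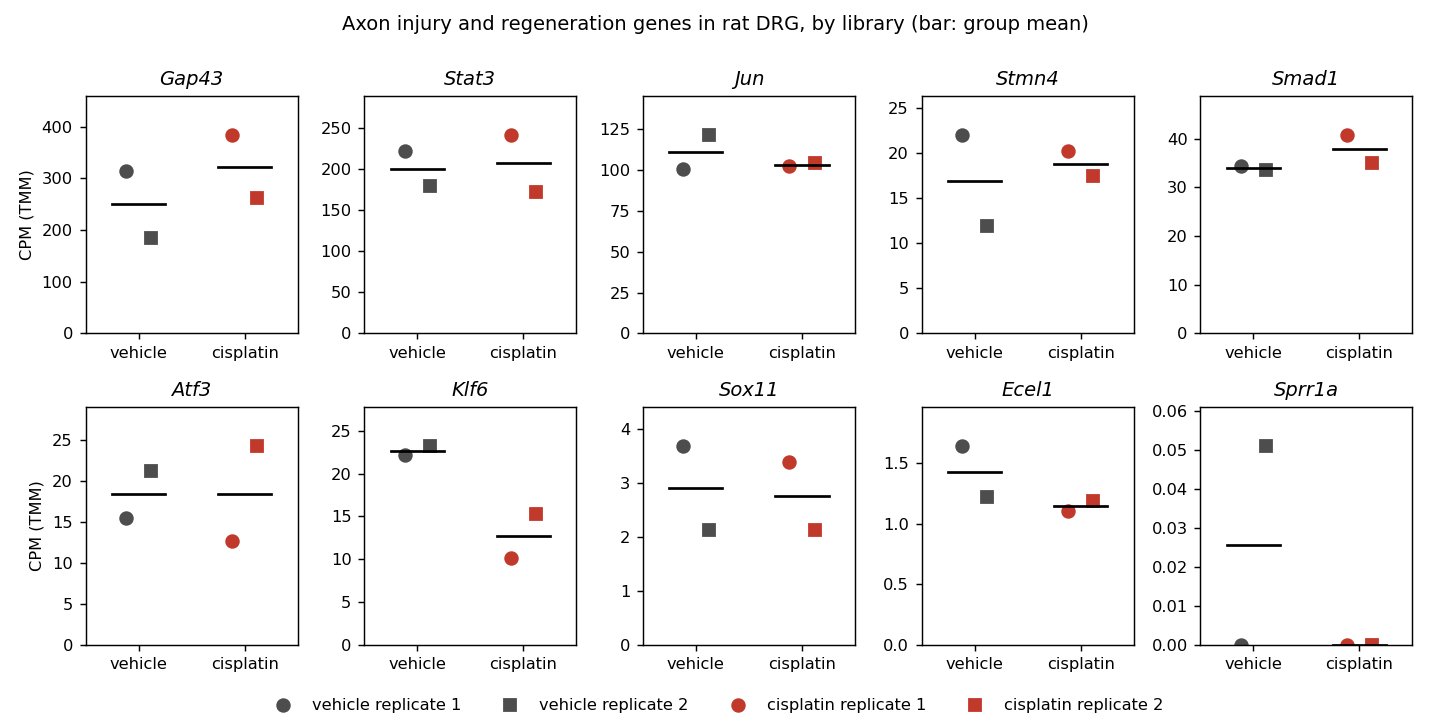
Level of each of the 10 genes in each library, in TMM-scaled CPM (vertical axes from 0, each with its own scale), with circles for replicate 1, squares for replicate 2 and a bar at the group mean. The 2 cisplatin libraries lie below the 2 vehicle libraries for Klf6 and Ecel1 and above them for Smad1, while Sprr1a has a single read in the whole set.

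Among the transcription factors, no difference in Atf3 was detected between the groups. Atf3 (ENSRNOG00000003745, Rnor_6.0 chr13:109817728-109849632, minus strand), a stress-induced bZIP factor, had 386 and 418 counts in the vehicle libraries and 322 and 569 in the cisplatin libraries. The lowest and the highest library were both cisplatin-treated, so the groups overlapped completely. Means were 18.3 ± 4.11 CPM in vehicle and 18.4 ± 8.14 CPM in cisplatin (SD, n = 2), and the log2 fold change was 0.01 (SE 0.37, 95% interval -0.90 to 0.92, edgeR adjusted p = 0.996). The interval is wide enough to hold a 1.5-fold change in either direction. The value was -0.53 without cisplatin replicate 2, 0.41 without cisplatin replicate 1, and -0.19 without vehicle replicate 1. A separate assembled locus that carries Atf3's protein name held 13, 3, 0 and 6 counts and was not added.

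Jun (ENSRNOG00000026293, chr5:114011189-114014277, minus strand), the AP-1 subunit phosphorylated by JNK, varied least between libraries, together with Smad1. It had 2516 and 2391 counts in vehicle and 2607 and 2456 in cisplatin, or 111 ± 14.8 and 103 ± 1.25 CPM (SD, n = 2). The cisplatin libraries lay between the vehicle libraries. Its log2 fold change was -0.10 (SE 0.19, 95% interval -0.57 to 0.37, adjusted p = 0.878), an interval that excludes a 1.5-fold change in both directions in this fit. Without vehicle replicate 2 the value was 0.04. With the libraries scaled to neuron markers it was -0.41 (SE 0.37), on a scale where the median of all genes was -0.30. Across the 4 libraries Jun was the member nearest to Atf3 (root-mean-square difference 0.33 on the log2 scale), whereas the member nearest to Jun was Smad1 (0.19).

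Sox11 (ENSRNOG00000030034, chr6:46629974-46631983, minus strand), an HMG-box factor that is high in developing neurons and induced again by nerve injury, was scarce. It had 92 and 42 counts in vehicle and 86 and 50 in cisplatin, or 2.90 ± 1.09 and 2.76 ± 0.891 CPM (SD, n = 2). Replicate 1 was higher than replicate 2 in both groups, and the groups overlapped. The log2 fold change was -0.08 (SE 0.44, 95% interval -1.17 to 1.01, adjusted p = 0.960), and it was 0.38 without vehicle replicate 1 and 0.21 without cisplatin replicate 2.

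Klf6 (ENSRNOG00000016885, chr17:67887939-67945037, minus strand) gave the largest difference. It encodes a zinc-finger factor of the Krüppel-like family that is linked to axon growth. Counts were 554 and 456 in the vehicle libraries and 257 and 359 in the cisplatin libraries, and levels were 22.6 ± 0.732 and 12.7 ± 3.64 CPM (SD, n = 2). Both cisplatin libraries were below both vehicle libraries, as for 21.2% of all genes tested. The fit put Klf6 1.79-fold lower after cisplatin (log2 fold change -0.84, SE 0.27, 95% interval -1.50 to -0.17, unadjusted p = 0.0227), but the edgeR adjusted p was 0.509 and the DESeq2 adjusted p 0.348, so the difference did not pass the test. The value was -0.85 without vehicle replicate 1. It was -0.56 when cisplatin replicate 1 was left out and -1.16 when cisplatin replicate 2 was. Summed fibroblast and meninges markers were also lower in the cisplatin libraries (5650 and 7490 CPM in vehicle against 2746 and 5386 CPM in cisplatin). Of these 5 markers, 4 had a fitted value below 0 and 1 above 0. Cisplatin was below vehicle without overlap for 3 of the 5 (Col1a1, Col1a2 and Pdgfra), against 21.2% of all genes tested. Other marker lists were lower as well. Fitted values were below 0 for all 6 Schwann cell markers (median -0.31), all 3 skeletal muscle markers tested, all 3 spinal cord glia markers tested and both keratinocyte markers tested. They were above 0 for 7 of 8 neuron markers, and the remaining lists were mixed. The part of any of these markers in the Klf6 difference was not tested.

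Stat3 (ENSRNOG00000019742, chr10:88790408-88842233, minus strand), the factor that JAK kinases phosphorylate downstream of gp130, had 5556 and 3528 counts in vehicle and 6129 and 4060 in cisplatin. Levels were 200.6 ± 30.2 and 207 ± 48.6 CPM (SD, n = 2), and the cisplatin libraries bracketed the vehicle libraries. The log2 fold change was 0.04 (SE 0.25, 95% interval -0.58 to 0.67, adjusted p = 0.961), and it was 0.22 without vehicle replicate 1, -0.10 without vehicle replicate 2 and -0.21 and 0.27 without cisplatin replicates 1 and 2. Smad1 (ENSRNOG00000018483, chr19:32188267-32248684, plus strand), the factor that carries BMP signals to the nucleus, had 863 and 661 counts in vehicle and 1035 and 826 in cisplatin, or 34.0 ± 0.633 and 37.9 ± 3.98 CPM (SD, n = 2). Both cisplatin libraries were above both vehicle libraries, as for 20.6% of all genes. That gap was not called (log2 fold change 0.16, SE 0.19, 95% interval -0.31 to 0.62, adjusted p = 0.794), and it was 0.05 without cisplatin replicate 1 and 0.26 without cisplatin replicate 2.

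Among the growth-associated and injury-induced proteins, Gap43 was the most abundant and was not called. Gap43 (ENSRNOG00000001528, chr11:58624198-58717914, plus strand), a membrane phosphoprotein of the growth cone, had 7879 and 3637 counts in vehicle and 9748 and 6170 in cisplatin. Means were 249.8 ± 91.9 and 323 ± 85.9 CPM (SD, n = 2). The highest library was cisplatin replicate 1 and the lowest vehicle replicate 2, but vehicle replicate 1 lay above cisplatin replicate 2. The log2 fold change was 0.37 (SE 0.34, 95% interval -0.48 to 1.22, adjusted p = 0.725), and it moved with each library left out: 0.82 without vehicle replicate 1, 0.04 without vehicle replicate 2, 0.07 without cisplatin replicate 1 and 0.62 without cisplatin replicate 2, none of them called. Of the 8 neuron markers, 7 had a fitted value above 0 and 1 below 0, with a median of 0.30, where 49.1% of all genes tested were above 0. The part of these markers in the Gap43 difference was not tested. Expressed as a percentage of the geometric mean of the 8 neuron markers in its own library, Gap43 was at 52.9 and 40.2 in vehicle and 50.4 and 48.3 in cisplatin, and with the libraries scaled to those markers its log2 fold change was 0.08, on a scale where the median of all genes was -0.30.

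Stmn4 (ENSRNOG00000053334, chr15:43007908-43025852, plus strand), a neuronal stathmin that destabilises microtubules, had 550 and 234 counts in vehicle and 513 and 410 in cisplatin. Both cisplatin libraries lay between the vehicle libraries (16.9 ± 7.13 and 18.8 ± 1.96 CPM, SD, n = 2). The log2 fold change of 0.15 (SE 0.33, 95% interval -0.68 to 0.98, adjusted p = 0.897) was 0.67 without vehicle replicate 1 and -0.22 without vehicle replicate 2. Ecel1 (ENSRNOG00000019447, chr9:94239006-94250809, minus strand), a neuronal membrane metallopeptidase that is strongly induced in injured neurons, had only 41 and 24 counts in vehicle and 28 and 28 in cisplatin. Scaled for depth, both cisplatin libraries were below both vehicle libraries (1.43 ± 0.296 and 1.15 ± 0.0622 CPM, SD, n = 2), and the difference was not called (log2 fold change -0.32, SE 0.41, 95% interval -1.36 to 0.71, adjusted p = 0.810). Without vehicle replicate 1 the value was -0.08. Sprr1a (ENSRNOG00000024028, chr2:192669143-192671059, minus strand), a small proline-rich protein of the cornified envelope that injured neurons also make, had 0 and 1 counts in vehicle and 0 and 0 in cisplatin. Every library was under the floor of 3 counts, so no fold is given and a rise below that floor was not detectable at this depth. Markers of keratinocytes, where Sprr1a is a structural gene, were low as well (6.18 to 13.9 CPM summed over 3 matched genes, with Krt14 at 0).

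**Figure D2:**
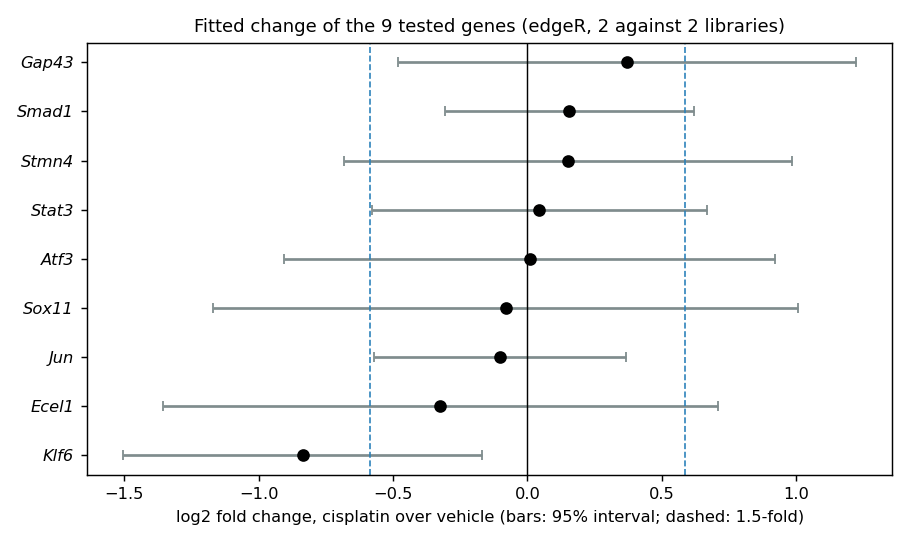
Fitted log2 fold change of cisplatin over vehicle for the 9 genes that passed the filter (horizontal axis; points) with 95% intervals as bars and dashed lines at a 1.5-fold change. Klf6 is the only gene whose interval (-1.50 to -0.17) leaves out 0, and Jun the only one whose interval lies inside the dashed lines.

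Levels per length spanned several orders of magnitude. On the FPKM scale the mean over the 4 libraries was 189 for Gap43 (rank 411 of the 22293 protein-coding genes), 44.9 for Stat3, 33.9 for Jun, 12.4 for Stmn4, 11.8 for Smad1, 6.17 for Atf3, 6.05 for Klf6, 1.38 for Sox11, 0.171 for Ecel1 and 0.0152 for Sprr1a. The ranges over the libraries of neighbouring genes in this order did not overlap, with 2 exceptions. Stmn4 was above Smad1 in 3 of 4 libraries, and Atf3 above Klf6 in 2 of 4. Atf3 was at 4.26 to 8.14 FPKM, with rank 8092, and so was clearly detected in the vehicle libraries as well (5.19 and 7.08 FPKM). Ecel1, with rank 15116, was scarce but above the floor of 3 counts in all libraries. Sprr1a, with rank 17402, was under that floor in all of them. Within the stathmin family, Stmn4 was the least abundant: the mean was 882 FPKM for Stmn2, 808 for Stmn3, 327 for Stmn1 and 12.4 for Stmn4. None of the 4 stathmins was called by edgeR or DESeq2, and none had an unadjusted p under 0.05 (edgeR). Stmn2 had the highest fitted value (0.55, adjusted p = 0.660), with 41845 and 26511 counts in vehicle and 67132 and 42093 in cisplatin.

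**Figure D3:**
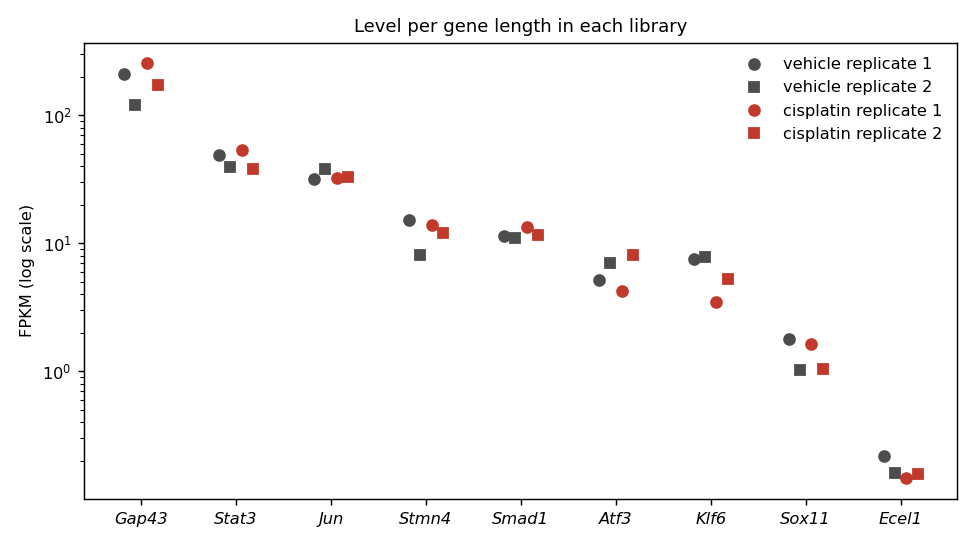
FPKM of each gene in each library (vertical log axis), ordered by mean level, with grey for vehicle, red for cisplatin, circles for replicate 1 and squares for replicate 2. Gap43 (121 to 253 FPKM) stands above the others and Ecel1 lies under 0.3 FPKM; Sprr1a is left out because 3 of its 4 values are 0.

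Most of the 9 genes differed between replicates 1 and 2 in the same direction in both groups, as most genes did. Gap43, Sox11, Stmn4, Stat3 and Smad1 were lower in replicate 2 than in replicate 1 in both groups (5 of 9, against 34.2% of all genes tested), by 0.77 and 0.55 on the log2 scale for Gap43 in vehicle and cisplatin and by 0.76 and 0.65 for Sox11. Atf3, Klf6 and Jun were higher in replicate 2 in both groups (3 of 9, against 38.2%), by 0.46 and 0.93 for Atf3. All 8 neuron markers were lower in replicate 2 in both groups, with median differences of -0.32 and -0.46, and all 6 Schwann cell markers were higher, with medians of 1.15 and 1.46. The part of this difference in composition in the members' values was not tested. By root-mean-square difference over the 4 libraries the members nearest to each other were Stat3 and Smad1 (0.15 on the log2 scale) and Gap43 and Stmn4 (0.16), followed by Sox11 and Stat3 (0.18). Klf6 was the member farthest from its own nearest, which was Ecel1 (0.37). From the lowest to the highest library, Klf6 spanned 2.29-fold, Gap43 2.08-fold and Atf3 1.91-fold, whereas Jun and Smad1 each spanned 1.21-fold.

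**Figure D4:**
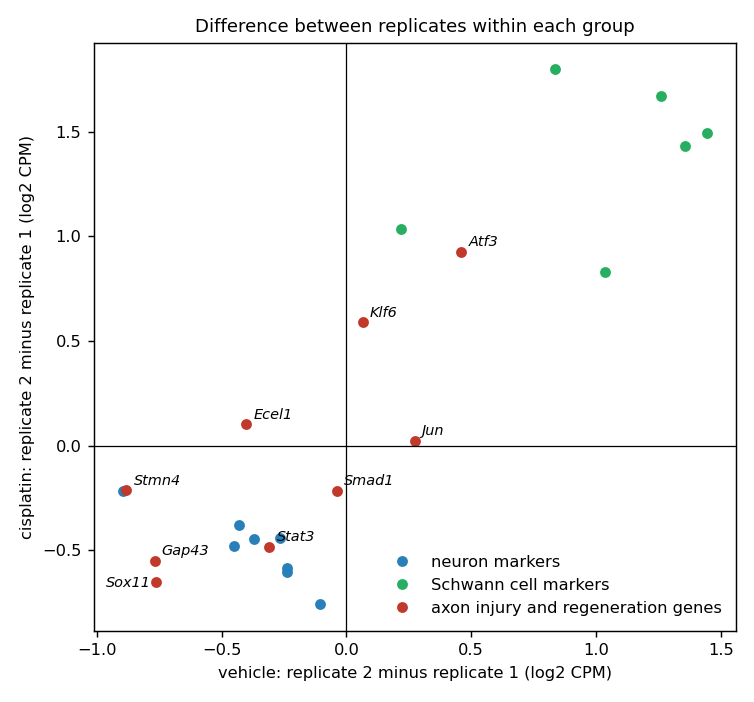
Replicate 2 minus replicate 1 in log2 CPM, in the vehicle group (horizontal axis) and in the cisplatin group (vertical axis), for the 9 genes that passed the filter (red), 8 neuron markers (blue) and 6 Schwann cell markers (green). Gap43, Sox11, Stmn4, Stat3 and Smad1 lie in the lower left with the neuron markers, and Atf3, Klf6 and Jun lie in the upper right with the Schwann cell markers.

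Other genes of the same pathways were taken from lists of known pathway members and are described by their counts. None of them was called by edgeR or by DESeq2. Of 18 other transcription factors of the injury response that were tested, 7 were higher and 11 lower, with a median log2 fold change of -0.04. Both cisplatin libraries were above both vehicle libraries for 3 and below for 5 of the 18, where 20.6% and 21.2% of all genes tested were above and below. The median was 0.05 without cisplatin replicate 1, 0.11 without vehicle replicate 2 and -0.11 without cisplatin replicate 2. Klf9, a Krüppel-like factor that restrains axon growth, had 684 and 450 counts in vehicle and 366 and 363 in cisplatin (log2 fold change -0.75, SE 0.21, unadjusted p = 0.0137, adjusted p = 0.509), and it was the only one of the 18 at an unadjusted p under 0.05. Without vehicle replicate 1 its value was -0.60 and its unadjusted edgeR p 0.105. The stress factor Ddit3 had the highest value (0.49; 732 and 428 counts against 1091 and 670, adjusted p = 0.593) and the AP-1 subunit Fosl2 the lowest (-0.89; 52 and 29 against 23 and 24, adjusted p = 0.544). The most abundant, Atf4 and Jund, were at 0.06 and -0.02.

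Of 21 other injury-induced neuronal genes tested, 14 were higher and 7 lower, with a median of 0.12 that was 0.29 without vehicle replicate 1 and 0.08 without vehicle replicate 2. The cisplatin libraries were above the vehicle libraries for 7 and below for 0 of the 21, against 20.6% and 21.2% of all genes tested, and none of the 21 reached an unadjusted p under 0.05. Those 7 were Gal, Hspb1, Arg1, Stmn2, Tubb6, Tubb2b and Plaur, named here because of that pattern. The pattern was not particular to this list. Among the 8 neuron markers cisplatin was above vehicle without overlap for 3 and below for 0, with a median of 0.30. Scaled to neuron markers, the median of the 21 genes was -0.08, where the median of all genes was -0.30. The part of the neuron markers in this list's values was not tested. Gal, a neuropeptide that injured sensory neurons make, had 168 and 128 counts in vehicle and 281 and 195 in cisplatin (log2 fold change 0.55, adjusted p = 0.550). Hspb1, a small heat shock protein, had 6530 and 4663 counts against 7575 and 6516 (0.21). The ends of the range belonged to scarce genes, Reg3b at 1.04 (3 and 20 counts against 34 and 21) and Nts at -0.998 (58 and 5 against 10 and 22). Vehicle replicate 1 held the lowest Reg3b level and the highest Nts level. Nts was at 2.32 and 0.254 CPM in vehicle and at 0.394 and 0.935 CPM in cisplatin, so both cisplatin libraries were above vehicle replicate 2. Npy, a neuropeptide that is almost silent in intact DRG, had 0 counts in all 4 libraries, and Vip had 3, 2, 2 and 12. Sox4 and Vgf were not analysed here.

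Of 13 DLK and JNK signalling genes, 3 were higher and 10 lower (median -0.22). The groups did not overlap for 1 of the 13, against 41.8% of all genes tested. That gene was Map3k13, with 219 and 163 counts against 183 and 142. Mapk10, which encodes JNK3, was highest (0.14, adjusted p = 0.918) and Nmnat2, an axon survival factor, lowest (-0.52; 552 and 328 counts against 427 and 240, adjusted p = 0.609). The scaffolds Mapk8ip1 and Spag9 were the most abundant on the FPKM scale, with log2 fold changes of -0.07 and -0.49. The list's median was -0.01 without vehicle replicate 1, -0.04 without cisplatin replicate 2 and -0.34 without cisplatin replicate 1, and none of its genes had an unadjusted p under 0.05.

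In the gp130 pathway, which acts through Stat3, the shared receptor subunits had the lowest values. Il6st, which encodes gp130, had 1423 and 1258 counts in vehicle and 783 and 842 in cisplatin. Both cisplatin libraries were below both vehicle libraries (60.4 ± 4.99 against 33.3 ± 3.51 CPM, SD, n = 2; log2 fold change -0.86, SE 0.19, unadjusted p = 0.00487, adjusted p = 0.509). Lifr, its partner in the receptors for LIF and CNTF, had 1936 and 831 counts against 879 and 469 (-1.13, SE 0.39, unadjusted p = 0.0310, adjusted p = 0.509). Without vehicle replicate 1 the values were -0.93 for Il6st and -0.62 for Lifr. These 2 were the genes lower at an unadjusted edgeR p under 0.05 with the fold among 13 tested, against 5.32% of all genes. Of the 13, 4 were higher and 9 lower (median -0.21, or -0.30 without vehicle replicate 1 and -0.13 without cisplatin replicate 2). Cisplatin was above vehicle without overlap for 2 and below for 5, against 20.6% and 21.2% of all genes tested. The ligand Clcf1 was highest (0.63; 17 and 30 counts against 41 and 41, adjusted p = 0.694). Cntf, a Schwann cell cytokine, was abundant and followed the replicate number (2765 and 3593 counts against 2221 and 4667, log2 fold change -0.04), and Jak1 was at -0.03. Il6 and Lif themselves held at most 1 and 6 counts. Socs3, a target and feedback inhibitor of Stat3, had 125 and 114 counts against 73 and 130.

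Of 18 genes of BMP and Smad1 signalling, 8 were higher and 10 lower (median -0.03). The groups did not overlap for 11, with cisplatin above for 4 and below for 7, where 41.8% of all genes tested did not overlap (20.6% above and 21.2% below). The median was -0.29 without cisplatin replicate 2 and -0.07 without vehicle replicate 1. The receptor Bmpr2 had 971 and 528 counts in vehicle and 498 and 447 in cisplatin (log2 fold change -0.77, SE 0.24, unadjusted p = 0.0224, adjusted p = 0.509), and its value was -0.46 without vehicle replicate 1. It was the only gene of this list at an unadjusted p under 0.05. The ligand Bmp4 had the highest value (0.82; 44 and 22 counts against 66 and 59, adjusted p = 0.545). The target genes pointed both ways, with Id3 at 0.38 (1535 and 1314 counts against 1945 and 2124) and Id1 at -0.29 (719 and 593 against 562 and 609).

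Of 11 genes known as brakes on axon growth, 5 were higher and 6 lower (median -0.20). The median was -0.09 without vehicle replicate 1 and -0.06 without cisplatin replicate 1. Klf9, listed here as well, was the only one of the 11 at an unadjusted p under 0.05. Lingo1, a co-receptor for myelin inhibitors, was highest (0.61, with 1379 and 897 counts against 2403 and 1393, edgeR adjusted p = 0.532), and its groups did not overlap. Cisplatin was above vehicle without overlap for 1 of the 11 and below for 3, against 20.6% and 21.2% of all genes tested. The most abundant, Rhoa and Rtn4, were at 0.06 and -0.20. Over all genes tested, fold changes tended to be lower for longer genes (Spearman's rho -0.357, where genes are not independent replicates). With that relation removed, the log2 fold changes were -0.78 for Klf6, -0.73 for Klf9, -0.78 for Il6st, -0.90 for Lifr and -0.64 for Bmpr2, and the unadjusted edgeR p of Lifr was 0.0690. Under the same correction Ecel1 went from -0.32 to -0.0088, Stmn4 from 0.15 to 0.01, Stat3 from 0.04 to 0.22 and Gap43 from 0.37 to 0.24. The list medians were then -0.14 for the other transcription factors, 0.04 for the injury-induced neuronal genes, -0.13 for DLK and JNK, -0.16 for gp130, -0.04 for BMP and -0.05 for the brakes.

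**Figure D5:**
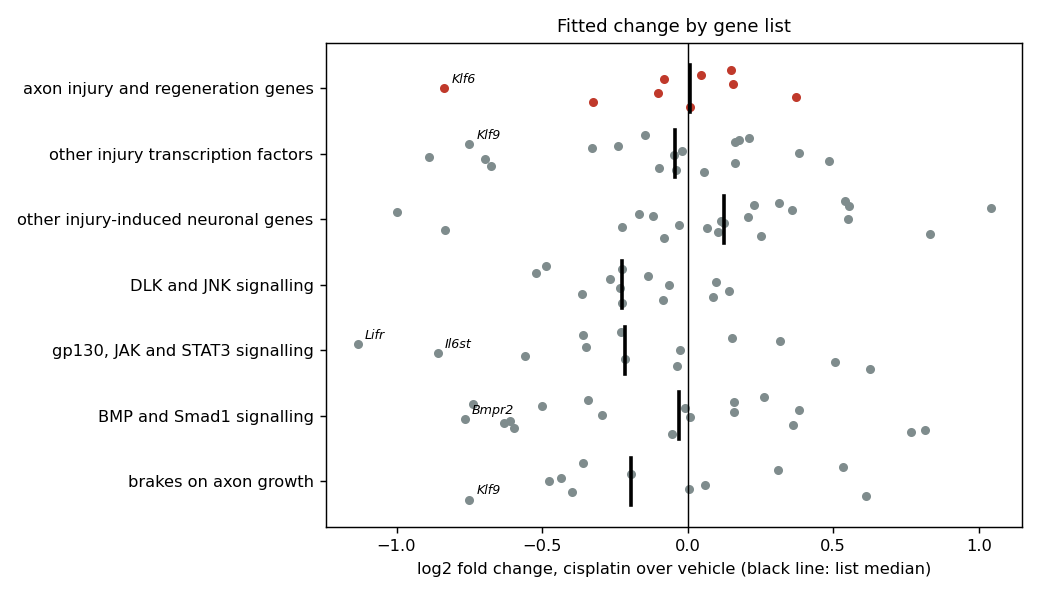
Fitted log2 fold change of cisplatin over vehicle (horizontal axis) for each tested gene of the axon injury and regeneration group (red) and of the 6 related lists (grey), with a black line at each list's median and names for genes at an unadjusted p under 0.05 with at least a 1.5-fold change. Medians run from -0.22 to 0.12, and all the named genes lie left of 0. Of all genes tested, 5.32% were lower and 2.8% higher at that threshold. Klf9 belongs to both the other transcription factors and the brakes and is named in each.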

How the data were processed

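The labels group 4 libraries of poly-A-selected RNA into vehicle and cisplatin, with replicate numbers from the titles. According to the methods and the submitters' processing notes, the authors mapped paired reads with HISAT2 2.0.5 to Ensembl Rnor_6.0, used StringTie 1.3.3b and featureCounts 1.5.0-p3, and deposited raw counts per gene. Whether counting used strand is not given in the sources used here, so overlapping genes are uncertain. The deposited FPKM values are the counts scaled by gene length and 1 constant per library; they were used for levels between genes and for limma. All value columns were used.

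Of 22293 protein-coding genes, 14719 passed edgeR's filterByExpr. Counts were TMM-normalised and the groups were compared by glmQLFit and glmQLFTest of edgeR 4.0.16 in R 4.3.3, with no block; SE values derive from the fold change and F. The edgeR p-values weigh the group difference against the spread between 2 libraries per group, which the fit moderates across genes. CPM are mean and SD. DESeq2 1.42.0 and limma 3.58.1 were alternatives, beside other normalisations, filters, all biotypes, a gene length correction, a block on the replicate number and dropping each library in turn. A leave-one-out fit assumes that the lone library varies like the other group. Scaling to neuron markers was chosen after seeing the data. Scripts were tested on simulated data, with larger changes than those fitted for the members and a smaller spread than in the main fit. That test does not show how well differences of the members' size can be detected. The members and lists were chosen with earlier results of these data known. Named beside the 10 members are, per list, genes at an unadjusted p under 0.05 with a 1.5-fold change, the highest, the lowest and the 2 most abundant; Gal and the other genes listed for non-overlapping groups, Map3k13, Npy, Vip, Il6, Lif, Socs3 and single markers were chosen after their values were seen.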

Additional observations from a re-analysis of the deposited data

How the results depend on the processing

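The 9 tested members were refitted under 16 alternatives. Klf6 and Ecel1 stayed below 0 and Gap43 above 0 in all of them, with ranges of -1.16 to -0.56, -0.59 to -0.01 and 0.04 to 0.82. Log2 fold changes near 0 changed sign. Atf3 was at -0.0510 with library size alone, -0.0414 with the replicate block and -0.24 scaled to neuron markers. In limma it was at -0.0282 on log2(FPKM + 1) and at -0.0398 on log2(FPKM + 0.1). Stat3 was at -0.0134 with library size alone. Scaled to neuron markers, Stmn4 was at -0.10, Stat3 at -0.27 and Smad1 at -0.15. Leaving out each library gave -0.53 to 0.41 for Atf3, -0.22 to 0.0423 for Jun, -0.45 to 0.38 for Sox11, -0.22 to 0.67 for Stmn4 and -0.21 to 0.27 for Stat3. The members' median moved to -0.27 scaled to neuron markers and ranged from -0.10 to 0.21 when each library was left out. The causes were not tested.

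The number of protein-coding genes called, 1 in the main comparison (0 higher, 1 lower), was 2 without a filter and also 2 under a minimum of 10 counts in each library (1 higher under both), 99 with DESeq2 (36 higher, 63 lower), 4 with limma on log2(FPKM + 1) (2 higher, 2 lower), and 0 with limma on log2(FPKM + 0.1) and scaled to neuron markers. It was 5 to 7 when a library was left out (0 to 4 higher, 2 to 5 lower). There are only 2 pairs of same-numbered libraries, which are different rats linked by the labels only through that number. Whether these libraries shared anything else is not stated. Their deviations from the group means correlated across genes (r = 0.444). With the replicate block the count was 1665 (529 higher, 1136 lower), and adding the gene length correction to the block gave 1082 (277 higher, 805 lower). The replicate block then called 1 member, Klf6 (-0.86, edgeR adjusted p = 0.00881, where 11.3% of all genes were called), as did the block with the length correction (-0.81, adjusted p = 0.0211, 7.35%). Gap43 had an adjusted p of 0.0347 with the block but not the fold. Of the lists, the block called Klf9, Cacna2d1, Lifr, Il6st, Bmpr1a, Bmpr2 and Smad5, and the block with the length correction, which called part of these, added Nmnat2 (lower) and the brakes Rtn4rl1 and Lingo1 (higher, 0.60 for both). Over the alternatives the adjusted p ranged from 0.00881 to 0.996 for Klf6 and from 0.0347 to 0.999 for Gap43. Sox11, Ecel1 and Sprr1a are the members most limited by depth.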
